A study of Mus musculus with 12 samples.

Results

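The cytosolic heat shock proteins described here are 10 genes that the heat shock transcription factor HSF1 drives, taken by name from a table of 46095 genes: Hspa1a, Hspa1b, Hspa8, Hsp90aa1, Dnajb1, Dnaja1, Hsph1, Hspb1, Hspb8 and Bag3. All 10 were found in the table, and 8 passed the filter on low counts and were tested. They were measured by RNA sequencing of whole pancreas at postnatal day 56. There were 6 libraries of the C57BL/6J wild type (WT 1 to 6) and 6 of Axl-/-Mertk-/- animals (AMKO 1 to 6). Mice of both groups had acute pancreatitis, brought about by caerulein, which overstimulates acinar cells: it was injected into the peritoneum every hour, 10 times, at a dose of 100 µg/kg, and the pancreas was taken 12 h after the first dose. No untreated pancreas was analysed here, so each comparison is between genotypes within pancreatitis. The sources used here do not give the strain background of AMKO, so background and receptor loss cannot be told apart. The comparison asks how the transcriptome of the inflamed pancreas differs when the receptor tyrosine kinases AXL and MERTK, which recognise dying cells, are missing.

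Heat shock proteins are chaperones that bind unfolded or partly folded proteins and keep them from aggregating. HSP70 proteins work in a cycle in which J-domain proteins deliver the client and stimulate ATP hydrolysis, and nucleotide exchange factors release it; HSP90 proteins then mature selected clients, and small heat shock proteins hold unfolded proteins without using ATP. Under proteotoxic stress HSF1 forms trimers that bind inverted repeats of the bases GAA in the promoters of these genes. In the pancreas, whose acinar cells make large amounts of secreted protein, heat shock proteins have long been studied in experimental pancreatitis.

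Promoter windows of the members were searched for these repeats, and 5 are shown because the genes they precede are the ones whose values are contrasted below. RefSeq windows on GRCm38.p6, each 300 bases long and reaching from 250 bases before the start of the gene to 50 after it, were matched for 8 members (Hspa8 and Hsp90aa1 were not matched). The sequences are written 5′ to 3′ on the strand of the gene, and capitals mark every GAANNTTC or TTCNNGAA, the pairs of inverted repeats with N for any base, searched on both strands. The windows lie at chr5:116422815-116423114 on the minus strand for Hspb8, chr5:135887669-135887968 on the plus strand for Hspb1, chr5:149636287-149636586 on the minus strand for Hsph1, chr7:128523333-128523632 on the plus strand for Bag3 and chr17:34959189-34959488 on the minus strand for Hspa1b.
Hspb8: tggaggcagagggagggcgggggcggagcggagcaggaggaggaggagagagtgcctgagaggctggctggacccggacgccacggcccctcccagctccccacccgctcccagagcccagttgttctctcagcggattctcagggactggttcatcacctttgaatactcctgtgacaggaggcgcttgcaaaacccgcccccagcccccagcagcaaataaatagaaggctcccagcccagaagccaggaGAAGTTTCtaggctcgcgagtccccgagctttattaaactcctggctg
Hspb1: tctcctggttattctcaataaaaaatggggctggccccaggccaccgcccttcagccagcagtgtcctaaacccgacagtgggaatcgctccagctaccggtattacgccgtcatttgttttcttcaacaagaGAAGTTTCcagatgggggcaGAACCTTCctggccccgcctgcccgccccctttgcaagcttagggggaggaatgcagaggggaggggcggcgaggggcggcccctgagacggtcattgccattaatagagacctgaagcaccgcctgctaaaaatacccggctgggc
Hsph1: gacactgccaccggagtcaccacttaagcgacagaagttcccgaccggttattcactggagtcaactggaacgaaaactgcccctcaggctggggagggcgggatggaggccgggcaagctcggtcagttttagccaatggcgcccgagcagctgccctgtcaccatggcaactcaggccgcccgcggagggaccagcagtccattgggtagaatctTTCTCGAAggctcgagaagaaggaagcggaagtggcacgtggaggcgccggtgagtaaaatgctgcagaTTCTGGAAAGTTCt
Bag3: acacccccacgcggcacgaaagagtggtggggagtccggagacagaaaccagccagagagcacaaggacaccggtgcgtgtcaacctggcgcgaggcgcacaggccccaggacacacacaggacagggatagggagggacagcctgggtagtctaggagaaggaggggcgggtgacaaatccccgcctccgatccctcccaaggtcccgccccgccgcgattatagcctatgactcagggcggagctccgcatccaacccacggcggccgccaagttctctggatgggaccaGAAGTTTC
Hspa1b: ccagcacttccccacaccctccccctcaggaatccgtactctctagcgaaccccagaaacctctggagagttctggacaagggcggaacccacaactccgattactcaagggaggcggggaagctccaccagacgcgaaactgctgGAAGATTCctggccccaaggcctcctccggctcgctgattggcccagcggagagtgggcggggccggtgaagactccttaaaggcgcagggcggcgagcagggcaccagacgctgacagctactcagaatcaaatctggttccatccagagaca
At least 1 such pair was present in 8 of the 12 windows of the matched members, which belong to 7 of the 8 genes, and in 15.1% of all 32851 windows, and no pair was found in the Dnajb1 windows. Hspb8 and Bag3 each had a single GAAGTTTC, at positions 253 and 293 counted from the first base of the window, so both lie after the annotated start. Hspb1 had pairs at positions 134 and 154. The Hsph1 window held a pair at position 218 and, near its end, overlapping pairs at positions 287 and 292 that form a run of 3 repeats in alternating orientation, each 2 bases apart, a form found in 0.603% of windows. The windows of Hspa1b and of its near-identical copy Hspa1a differed at 4 of 300 bases and carried the same GAAGATTC at position 147. These matches describe letters in the reference and do not show binding or its absence.

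The libraries held 10668637 to 15184371 counts. Levels are given in CPM, counts scaled to a common library depth by edgeR's TMM factors. Axl, the first targeted gene, averaged 58.9 ± 12.3 CPM in the wild type libraries and 9.09 ± 2.20 CPM in the AMKO libraries (SD, n = 6 each). It had 66 to 187 counts in each AMKO library against 545 to 1086 in each wild type library (log2 fold change -2.69, SE 0.18, adjusted p = 1.95e-06 by edgeR's quasi-likelihood test, which gave every adjusted p below unless another tool is named). Mertk, the second, averaged 6.90 ± 2.96 and 6.75 ± 2.39 CPM (log2 fold change -0.03, SE 0.30, adjusted p = 0.968). A total for the gene cannot tell exons apart, and that disruption is therefore unchecked. Libraries stood apart in 3 ways. WT 1 to 3 had 2 to 7 counts of the liver transcript Alb, and the other 9 libraries had 141 to 309. WT 3, WT 6, AMKO 3 and AMKO 6 had the lowest sums of both neutrophil and macrophage markers. Summed skeletal muscle markers were 30.7 to 56.8 CPM in WT 3, WT 4, WT 6 and AMKO 4 to 6 and 2.06 to 3.02 CPM in the other 6 libraries, with 107 to 262 against 0 to 1 counts of Myh4. Member values were therefore also computed with either set of wild type libraries on its own, without the 4 leukocyte-poor libraries, and within each of the sets with and without muscle transcripts. The acinar markers that define the tissue summed to 167676 to 316694 CPM per library, with 1 of the 10, Prss2, listed at 0 in all.

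Of the 8 tested members, 2 rose in AMKO and none fell. These were Hspb8, a small heat shock protein, and Hsp90aa1, the stress-inducible cytosolic HSP90. Over all 13743 genes tested, 5.78% were called at an adjusted p under 0.05: 2.41% were higher in AMKO and 3.37% lower. A count of 2 among 8 is too small to set the members apart from that background. Fitted values lay above 0 for 7 of the 8 and for 6830 of all 13743 tested genes. The median log2 fold change of the members was 0.22, where the median of all tested genes was -0.0020. Members whose levels move together across libraries do not give separate signs. In whole tissue, a difference in RNA per cell and a difference in the number of cells of a type cannot be told apart.

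**Figure D1:**
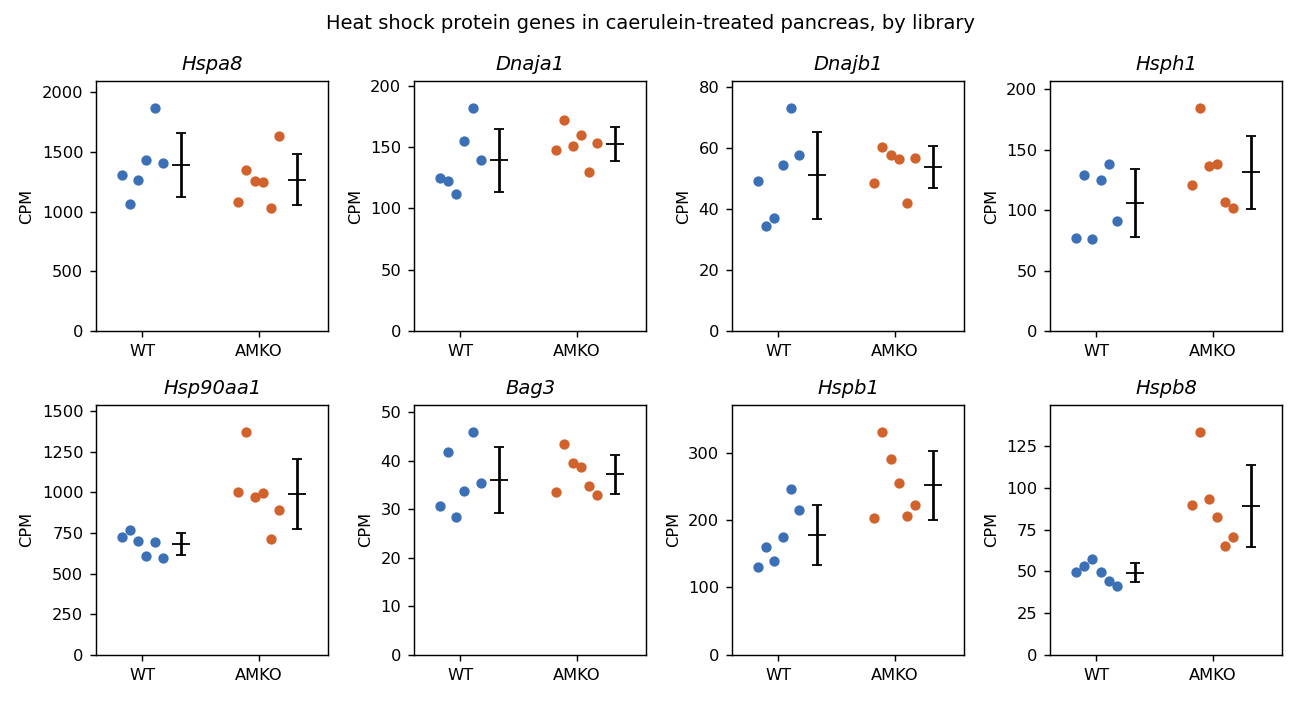
CPM (vertical axis, from 0) of the 8 tested heat shock protein genes in the 6 WT (blue) and 6 AMKO (orange) libraries, one point per library in the order of its number, with the mean and SD as a black bar. Hspb8 is the gene whose groups do not overlap, and Hsp90aa1 overlaps through AMKO 5 alone, whereas the 2 groups of Hspa8, Dnajb1, Dnaja1 and Bag3 cover much the same range.

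Hspb8 encodes a small heat shock protein that binds BAG3 and, with it, passes misfolded proteins to autophagy. In wild type its level ran from 41.5 CPM in WT 6 through a median of 49.6 to 57.6 CPM in WT 3. In AMKO it ran from 65.2 CPM in AMKO 5 through a median of 86.1 to 134 CPM in AMKO 2. The groups did not overlap. Of all tested genes, 3.54% had groups that did not overlap, and in 1.24% AMKO was the higher group. The mean went from 49.3 ± 5.83 to 89.1 ± 24.4 CPM (SD, n = 6 each). This was 1.81-fold higher, or 0.86 on the log2 scale (SE 0.15, adjusted p = 0.00526, 95% interval 0.53 to 1.18). The call held in all 12 fits that left out 1 library (adjusted p up to 0.0158). It was lost when WT 1 to 3 alone stood for the wild type (0.74, adjusted p = 0.0999) and among the 8 libraries richer in leukocyte markers (0.92, adjusted p = 0.0547). Within the 6 libraries without skeletal muscle transcripts Hspb8 was at 44.3 to 53.01 CPM in wild type and 89.5 to 134 CPM in AMKO (1.13 on the log2 scale, adjusted p = 0.0563). Within the 6 libraries with them it was at 41.5 to 57.6 and 65.2 to 82.8 CPM (0.56, adjusted p = 0.258). Each set had 3 libraries per genotype. Groups that did not overlap over all 12 libraries cannot overlap within a set, so these ranges add no support. The difference between the sets was not tested. With the set as a term over all 12 libraries the call was kept (0.83, adjusted p = 0.00471). Over all 30 alternatives the log2 fold change lay between 0.56 and 1.13.

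Hspb1, which encodes HSP25, the mouse counterpart of HSP27, did not pass the test. Its lowest, median and highest levels were 131, 167 and 247 CPM in wild type and 203, 239 and 331 CPM in AMKO. The 3 highest AMKO libraries lay above every wild type library, and the other 3 lay between WT 4 and WT 5. The log2 fold change was 0.50 (SE 0.17, adjusted p = 0.0915), with a 95% interval of 0.15 to 0.86. It was called without WT 5 (0.62, adjusted p = 0.0397), with only WT 1 to 3 as the wild type (0.81, adjusted p = 0.0422), by DESeq2 (adjusted p = 0.0298) and by limma voom (adjusted p = 0.0233), while adjusted p reached 0.525 in other alternatives. A stretch of 477 bases of its transcript is 99.8% identical to the annotated copy Gm9817, so its counts are uncertain.

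Bag3, the co-chaperone that joins HSP70 to small heat shock proteins, averaged 36.0 ± 6.73 CPM in the wild type libraries and 37.1 ± 4.08 CPM in the AMKO libraries. Its log2 change was 0.05 (SE 0.12, adjusted p = 0.849), with a 95% interval of -0.20 to 0.30, and the AMKO libraries (32.9 to 43.4 CPM) lay inside the wild type range (28.4 to 46.0 CPM). Set against each other per kilobase of exon within each library, Hspb8 stood at 1.87 ± 0.50 times Bag3 in wild type and 3.12 ± 0.57 times Bag3 in AMKO (SD, n = 6 each). The 2 ranges, 1.27 to 2.67 and 2.46 to 4.05, overlapped.

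Hsp90aa1 lies on chromosome 12 (110690605 to 110702728, GRCm38). Its wild type level ran from 594 CPM in WT 6 through a median of 697 to 766 CPM in WT 2, and its AMKO level from 713 CPM in AMKO 5 through a median of 985 to 1374 CPM in AMKO 2. All AMKO libraries except AMKO 5 lay above the highest wild type library. The mean went from 681 ± 66.4 to 992 ± 216 CPM (SD, n = 6 each). This was 1.46-fold higher, or 0.54 on the log2 scale (SE 0.13, adjusted p = 0.0264, 95% interval 0.26 to 0.82). The direction held in all 30 alternatives (0.41 to 0.75), but the call was lost in 10 of them. These were without WT 4 (adjusted p = 0.0631), WT 6 (0.0619), AMKO 3 (0.0564) or AMKO 1 and AMKO 2 together (0.0697), with total count scaling (0.0841), with WT 4 to 6 as the only controls (0.0989), with WT 1 to 3 as the only controls (0.245), among the 8 libraries richer in leukocyte markers (0.208), and within the 6 libraries without (0.181) or with (0.400) skeletal muscle transcripts. With the muscle set as a term the value was 0.53 (adjusted p = 0.0144). A stretch of 2255 bases of its transcript is 99.5% identical to Gm12346, so its counts are uncertain.

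The constitutive partner Hsp90ab1 was the more abundant of the cytosolic HSP90 genes and did not pass the test. It averaged 2788 ± 125 and 3009 ± 296 CPM in the wild type and AMKO libraries (0.11 on the log2 scale, SE 0.08, adjusted p = 0.474). Per kilobase of exon, Hsp90aa1 stood at 0.187 ± 0.024 of the level of Hsp90ab1 in wild type and at 0.251 ± 0.043 in AMKO. The ranges of that ratio, 0.153 to 0.220 and 0.205 to 0.316, overlapped.

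None of the 4 tested members of the HSP70 cycle passed the test. Hspa8, the constitutive HSC70 that also uncoats clathrin vesicles, was the most counted member and the 47th most counted gene in the table. Its lowest, median and highest levels were 1061, 1353 and 1868 CPM in wild type and 1027, 1253 and 1632 CPM in AMKO. The groups overlapped over most of their range, with WT 5 highest and AMKO 5 lowest (log2 fold change -0.13, SE 0.14, adjusted p = 0.618). It was the 1 tested member with a fitted value below 0, and its 95% interval ran from -0.43 to 0.16. Annotated copies in 6 other genes share at least 95% of 300 or more bases with it, so its counts are uncertain.

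Dnajb1, the HSP40 that pairs with HSP70 in refolding, ran from 34.3 to 73.2 CPM in the wild type libraries and from 42.2 to 60.4 CPM in the AMKO libraries (0.07 on the log2 scale, SE 0.16, adjusted p = 0.828). Dnaja1, a farnesylated J-domain protein, had 112 to 182 CPM and 130 to 172 CPM (0.13, SE 0.11, adjusted p = 0.534), and it shares 608 exonic bases with Smu1 on the opposite strand. A stretch of 1194 bases of the Dnaja1 transcript is also 99.4% identical to the annotated copy Gm15542, so its counts are uncertain. For both Dnajb1 and Dnaja1 the AMKO libraries lay inside the wild type range. WT 2 and WT 3 were the lowest libraries for Dnajb1 and Dnaja1, and WT 5 was the highest. Hsph1, the HSP110 that acts as nucleotide exchange factor for HSP70, averaged 106 ± 27.9 and 131 ± 30.0 CPM (0.31, SE 0.18, adjusted p = 0.333), and AMKO 2 alone lay above every wild type library. The 95% intervals reached 0.42 for Dnajb1, 0.37 for Dnaja1 and 0.69 for Hsph1, and differences up to these sizes lay within the error.

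The stress-inducible HSP70 genes Hspa1a and Hspa1b had too few counts to be tested. Hspa1a was listed with 0 to 3 counts per library and Hspa1b with 0 to 14, which together came to 37 counts over the wild type libraries and 39 over the AMKO libraries. Their transcripts are 99.2% identical over 2201 aligned bases, both also match the annotated gene Gm20481, and the sources used here do not say how reads with several matches were counted. The pair lies on chromosome 17 (34956436 to 34959238 for Hspa1b and 34969190 to 34972156 for Hspa1a), beside Hspa1l, which was listed with 0 counts in every library. Low listing was shared by their neighbours. Of the 14 other protein-coding genes within 100 kb of Hspa1b, 13 had at most 20 counts in every library, against 39.4% of the 20638 protein-coding genes placed. Among the 14 were Lsm2, an RNA-binding subunit used by every cell, with at most 1 count per library, and Vars, the valyl-tRNA synthetase, with at most 34. The window and the limit of 20 counts were chosen after the values were seen. The cause was not tested, and the values of Hspa1a and Hspa1b cannot be read as levels of expression.

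Ordered per kilobase of exon in wild type, Hspa8 came first (323 ± 62.6 CPM per kb), followed by Hsp90aa1 (173 ± 16.9) and Hspb1 (172 ± 43.6), which did not differ beyond their spread. Hspb8 followed at 25.3 ± 2.99 CPM per kb. Dnaja1 (16.1 ± 2.97), Dnajb1 (15.9 ± 4.48), Hsph1 (14.6 ± 3.84) and Bag3 (14.0 ± 2.63) stood within each other's SD. In AMKO the order began in the same way, with Hspa8 at 294 ± 50.01, Hsp90aa1 at 252 ± 55.0 and Hspb1 at 244 ± 49.9 CPM per kb, with overlapping SDs. Hspb8 stood at 45.7 ± 12.5 CPM per kb, again between Hspb1 and the 4 lowest genes. Lengths are from an annotation that need not be the one used for counting, and they join the exons of all transcripts of a gene. They were 8629 bases for Dnaja1, 7266 for Hsph1 and 1950 for Hspb8, where the longest single transcripts had 5622, 4764 and 1816. The gaps between Hspb8 and the genes below it, and among those genes, depend on this choice.

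**Figure D2:**
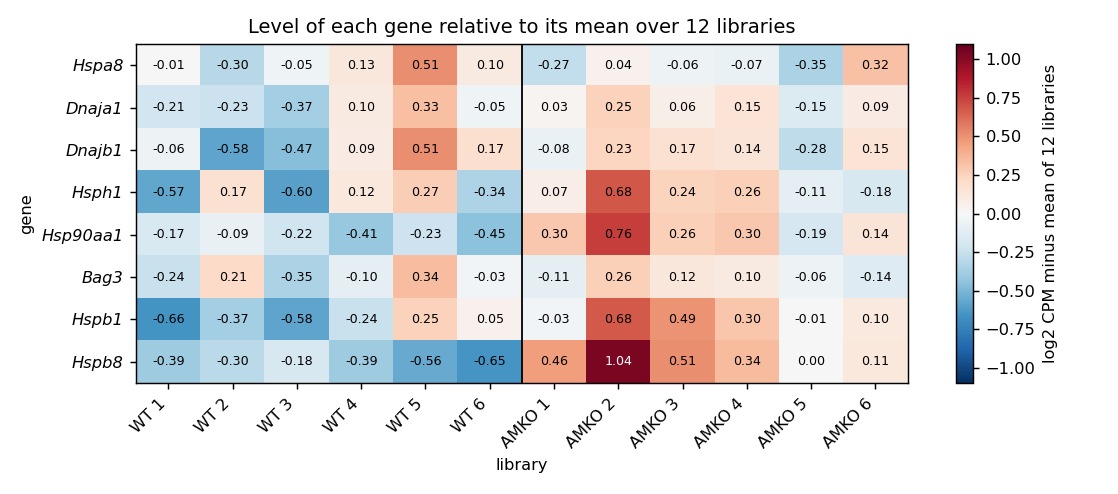
Log2 CPM of each tested gene (rows) in each library (columns) minus the mean of that gene over the 12 libraries, from blue (lower) to red (higher), with the value in each cell and a line between WT and AMKO. AMKO 2 is above the mean for every gene, while WT 5 is highest for Hspa8, Dnaja1 and Dnajb1 and below the mean for Hspb8 and Hsp90aa1.

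The members did not vary as a single block across the wild type libraries, whereas within AMKO all 28 pairs of members had a positive r. The HSP score, the mean over the 8 tested members of log2 CPM centred on the 12 libraries, averaged -0.15 ± 0.19 over the wild type and 0.15 ± 0.21 over the AMKO libraries (SD, n = 6 each). AMKO 2 had the highest score (0.49) and WT 3 the lowest (-0.35). WT 5 (0.18) was the 1 wild type library above 0, and AMKO 5 (-0.14) the 1 AMKO library below it. WT 5 was the highest of all 12 libraries for Hspa8, Dnajb1, Dnaja1 and Bag3, yet for Hspb8 it was the second lowest. AMKO 5 had the lowest AMKO level of Hspb8, Hsp90aa1, Hspa8, Dnajb1 and Dnaja1, and it also had the highest summed macrophage markers of all libraries (1490 CPM, against 324 to 811 CPM in wild type and 481 to 1289 CPM in the other AMKO libraries). AMKO 1 had the next highest macrophage sum (1289 CPM) and an HSP score of 0.05. Over the 12 libraries, genotypes pooled, the log2 macrophage sum had a Pearson r of 0.19 with the score and 0.21 with Hsp90aa1. The part of macrophage markers in the result was not tested.

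Pairs of members were compared within genotypes, and those named here were chosen after their values were seen. Hspa8 and Dnajb1 were correlated over the 6 wild type libraries (Pearson r = 0.931, exact permutation p = 0.00278; Spearman rho = 0.943, exact permutation p = 0.0167) and had r = 0.767 over the 6 AMKO libraries (exact permutation p = 0.0861; rho = 0.829, exact permutation p = 0.0583). Hsp90aa1 and Hspb8 had r = 0.953 in AMKO (exact permutation p = 0.00694; rho = 0.829, exact permutation p = 0.0583) and r = 0.573 in wild type (exact permutation p = 0.221; rho = 0.6, exact permutation p = 0.242). Without the 2 libraries farthest from the median of the first gene, r was 0.879 and 0.993 for Hspa8 with Dnajb1 in wild type and AMKO, and 0.262 and 0.825 for Hsp90aa1 with Hspb8. None of the 56 correlations within genotypes passed Benjamini-Hochberg adjustment. The lowest adjusted p was 0.104 for Pearson and 0.293 for Spearman (2-sided exact permutation tests). However, 6 libraries have too few orders for a pair alone to reach a p low enough to pass among 56. The adjusted values therefore cannot decide whether a single pair is correlated. Of the 28 pairs of members, 28 had a positive r in AMKO (median 0.77) and 18 in wild type (median 0.34), a difference that was not tested. The pairs share 8 genes and 6 libraries and are not separate observations. Without the 2 libraries farthest from the median of the first gene, some AMKO pairs fell below 0. These were Hsp90aa1 with Dnajb1 (r = -0.445), Hsp90aa1 with Dnaja1 (-0.0056) and Dnaja1 with Hspb8 (-0.387), while the other AMKO pairs stayed above 0. Signs also changed for some wild type pairs. Hspb8 and Hspb1 had r = -0.795 in wild type (exact permutation p = 0.0611; rho = -0.6, exact permutation p = 0.242) and r = 0.814 in AMKO (exact permutation p = 0.0417; rho = 0.657, exact permutation p = 0.175). Both values rest on the libraries farthest from the median of Hspb1, since r was -0.268 without WT 5 and WT 6 and 0.184 without AMKO 2 and AMKO 3.

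**Figure D3:**
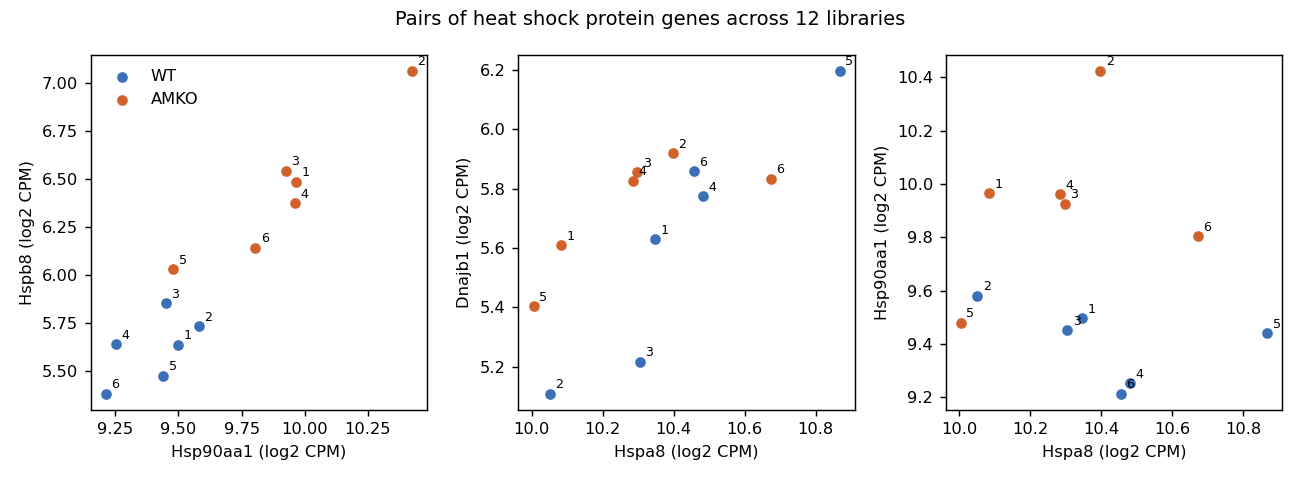
Log2 CPM of pairs of heat shock protein genes in each library, WT in blue and AMKO in orange, with the library number beside each point. AMKO 2 is highest for both Hsp90aa1 and Hspb8, which differ between the genotypes and had r of 0.573 in WT and 0.953 in AMKO. WT 5 is highest for both Hspa8 and Dnajb1. Hspa8 and Hsp90aa1 had r of -0.404 in WT and 0.348 in AMKO.

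The 8 genes outside the lists whose log2 CPM was most like the HSP score over the 12 libraries, of 12247 searched, were Ptp4a2, Hgh1, Borcs6, Mrpl48, Fbxo46, Abhd17a, Atp5b and Cox7a2l, with Pearson r from 0.869 for Cox7a2l to 0.919 for Ptp4a2. They were chosen for that value, so it carries no test. Of these, Borcs6 rose in AMKO, from 8.28 ± 0.61 to 11.8 ± 1.94 CPM (0.52 on the log2 scale, SE 0.12, adjusted p = 0.0232), and the other 7 did not pass the test.

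The wider chaperone network was counted from lists of genes grouped by role or by name. Over all 13743 tested genes 5.78% were called. The lists held 4 to 14 tested genes each, too few for 1 or 2 calls to set a list apart from that share. Of 7 tested relatives of HSP70 and HSP110, 1 rose and none fell (median log2 fold change -0.17). This was Hspa4l, an HSP110, which went from 49.8 ± 3.98 to 66.5 ± 8.37 CPM (0.42, SE 0.09, adjusted p = 0.0148), a call kept in all 12 fits without 1 library and lost in 6 of all 30 alternatives (adjusted p up to 0.618). Of 12 further J-domain genes, 1 rose and none fell (median 0.12). This was Dnajb2, from 47.2 ± 2.96 to 62.02 ± 10.1 CPM (0.39, SE 0.10, adjusted p = 0.0375), and the call remained in 2 of the 12 fits without 1 library and in 12 of all 30 alternatives. None of 14 tested genes of the HSP90 list (Hsp90ab1 and co-chaperones included) passed, with values from -0.24 to 0.20 (median 0.08). Their most counted genes were Hsp90ab1, given above, and the immunophilin Fkbp4 (-0.10, SE 0.13, adjusted p = 0.713).

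None of 7 tested genes of a list of HSP70 cofactors, nucleotide exchange and release factors among them, passed (median 0.10). The HSP70-interacting protein gene St13 was at -0.0015 (SE 0.08, adjusted p = 0.994) and Bag1 at 0.09 (SE 0.08, adjusted p = 0.554). None of 4 other tested genes listed under small heat shock protein names passed (median -0.21). Cryab, which encodes alpha B-crystallin, stood at 51.2 ± 14.9 and 58.9 ± 20.5 CPM (0.20, SE 0.22, adjusted p = 0.641), and Hspb11 at -0.21 (SE 0.21, adjusted p = 0.607). None of 8 tested subunits of the TRiC chaperonin, which folds actin and tubulin, passed, with all 8 values between 0.05 and 0.17, among them Cct5 (0.17, SE 0.07, adjusted p = 0.18) and Tcp1 (0.10, SE 0.07, adjusted p = 0.43).

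Organelle chaperones were counted in the same way. All 11 tested mitochondrial chaperones and proteases had fitted values above 0 (median 0.16), as did 6830 of all 13743 tested genes. Of the 11, 1 rose. This was Hspa9, the mitochondrial HSP70, from 311 ± 64.5 to 439 ± 65.5 CPM (0.50, SE 0.13, adjusted p = 0.0436), with the call kept in 3 of the 12 fits without 1 library and in 15 of all 30 alternatives. Hspe1 and Hspd1, which encode the mitochondrial chaperonin HSP10 and HSP60, did not pass. Hspe1 had a value of 0.58 (SE 0.17, adjusted p = 0.0567), and that of Hspd1 was 0.45 (SE 0.14, adjusted p = 0.0666). They lie outside the rule for named genes and were chosen after their values were seen. Uncalled genes of the lists above lay on both sides of 0, and these examples were chosen in the same way. Below it were Hspb7 (-0.74, adjusted p = 0.116), Hspa2 (-0.51, adjusted p = 0.151), Dnajb4 (-0.41, adjusted p = 0.092) and Hspa13 (-0.31, adjusted p = 0.0946). Above it were Dnajc21 (0.34, adjusted p = 0.0849) and Cdc37 (0.20, adjusted p = 0.153). Of 12 endoplasmic reticulum chaperones 1 rose (median -0.03), the J-domain gene Dnajb9, from 52.7 ± 8.34 to 73.5 ± 7.07 CPM (0.48, SE 0.10, adjusted p = 0.0145). Its call was lost in 5 of the 30 alternatives (adjusted p up to 0.264).

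**Figure D4:**
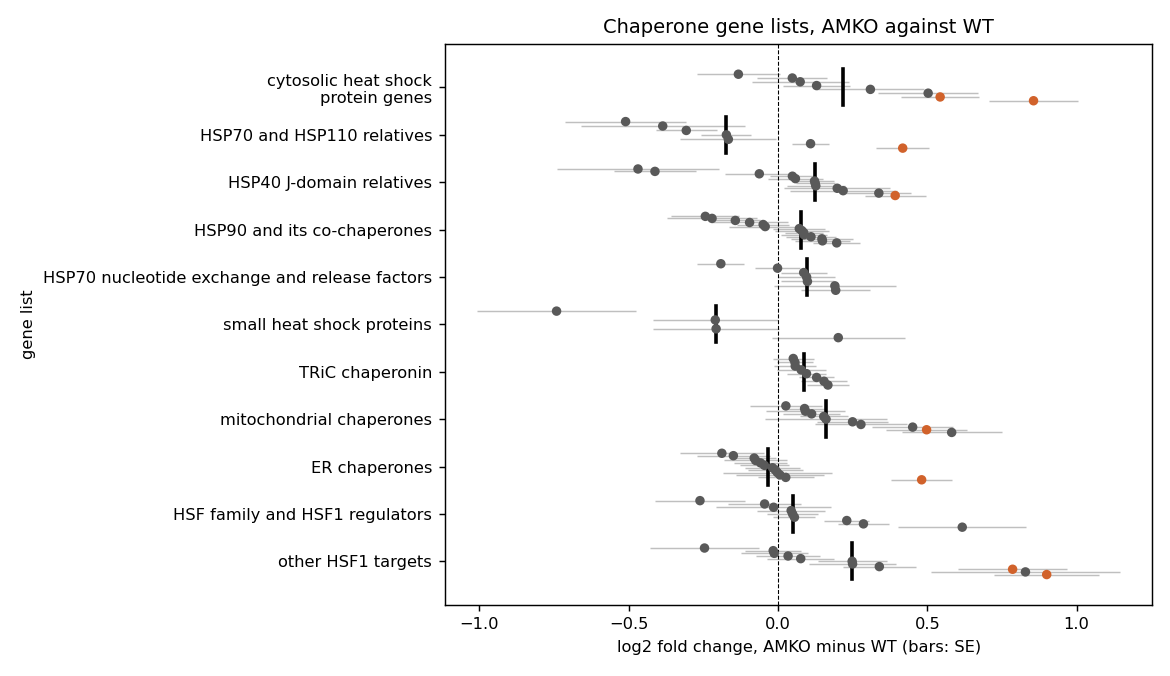
Log2 fold change, AMKO minus WT, with its SE (horizontal axis) for the tested genes of the members and of the 10 chaperone, HSF and HSF1 target lists (vertical axis), called genes in orange and the median of each list as a black bar. Called genes lie to the right of 0 in each of these lists that has any, and their medians lie between -0.21 and 0.25.

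Hsf1 itself lies outside the rule for named genes and was chosen after its values were seen. It averaged 34.5 ± 1.93 CPM in the wild type libraries and 42.04 ± 5.47 CPM in the AMKO libraries (0.29, SE 0.09, adjusted p = 0.0675). None of 9 tested genes of the list of HSF factors and regulators passed (median 0.05), including Vcp (0.06, SE 0.07, adjusted p = 0.692) and Hsbp1, an HSF1-binding protein (0.23, SE 0.07, adjusted p = 0.0853). Of 11 other HSF1 targets tested, 2 rose and none fell (median 0.25). Gadd45b, a growth arrest and DNA damage gene, went from 47.1 ± 11.3 to 88.1 ± 18.8 CPM with no overlap between groups (0.90, SE 0.18, adjusted p = 0.00932), and its call was lost in 5 of the 30 alternatives (adjusted p up to 0.256). Sqstm1, which shares exonic bases with Mrnip and so is uncertain, encodes the autophagy receptor p62. It went from 1069 ± 302 to 1842 ± 347 CPM (0.79, SE 0.18, adjusted p = 0.0219), and its call was kept in 7 of the 12 fits without 1 library and in 20 of all 30 alternatives. Both genes also answer to other stress regulators. Of 10 immediate early genes 1 rose, Atf3, from 47.6 ± 9.91 to 83.5 ± 22.3 CPM (0.81, SE 0.18, adjusted p = 0.0159). In 5 of the 30 alternatives Atf3 was not called (adjusted p up to 0.399).

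Markers of other cells were read beside these values, because muscle cells hold much small heat shock protein. Summed smooth muscle markers ran from 25.2 to 52.6 CPM in wild type and from 22.7 to 60.3 CPM in AMKO, and none of 5 tested passed. Summed skeletal muscle markers ran from 2.06 to 56.8 CPM and from 2.22 to 49.3 CPM, and none of 7 tested passed. Of 8 duct markers 3 were lower, with sums of 2144 to 2804 CPM in wild type and 1642 to 2369 CPM in AMKO. Of 7 endothelial markers tested 1 was lower (Kdr; sums of 173 to 258 and 143 to 220 CPM), of 8 fibroblast markers 1 was lower (Pdgfrb; 685 to 1206 and 532 to 1107 CPM), and of 10 macrophage markers 1 was higher (Mrc1). None of 9 acinar, 8 islet, 9 neutrophil, 7 liver or 6 B and plasma cell markers tested passed. Cldn5, Igkc and Ighm were listed at 0 in every library. Values within the sets with and without skeletal muscle transcripts are given beside Hspb8 and Hsp90aa1. Over the 12 libraries, log2 sums of smooth muscle, duct, endothelial and fibroblast markers had r of -0.50, -0.60, -0.45 and -0.56 with Hsp90aa1. With the HSP score r was -0.32, -0.21, -0.58 and -0.46, and macrophage sums had a positive r with both. Genotypes were pooled, so a difference between them enters each r. The part of smooth muscle, duct, endothelial, fibroblast and macrophage markers in the heat shock values was not tested.

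**Figure D5:**
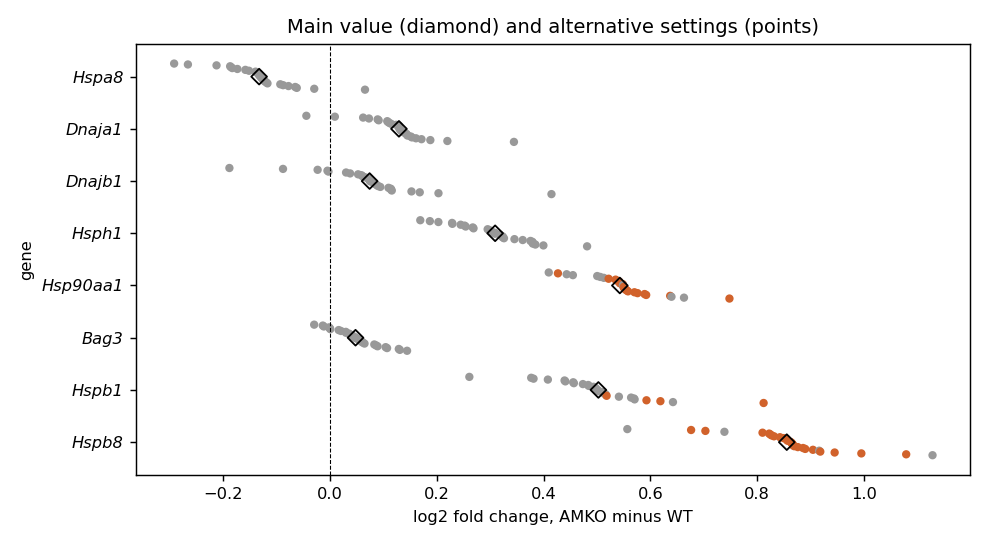
Log2 fold change of each tested gene (vertical axis) as reported (open diamond) and under 30 alternative settings (points, orange where the adjusted p was under 0.05). The points of Hspb8, Hsp90aa1, Hspb1 and Hsph1 all lie to the right of 0, and those of Hspa8, Dnajb1, Dnaja1 and Bag3 fall on both sides.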

How the data were processed

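RNA was sequenced from 12 pancreas samples. The submitters' processing notes name the aligner HISAT2 2.0.4 and the build mm10. The authors deposited 1 table of raw read counts for each gene. The sources used here do not give the counter, the annotation, the use of strand or the treatment of reads with several matches. The labels do not say that samples come from separate mice, so p-values measure the spread between these samples.

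AMKO was compared with wild type by edgeR 4.0.16 (R 4.3.3) quasi-likelihood F tests after filterByExpr and TMM scaling, a model of genotype alone, and Benjamini-Hochberg adjustment over 13743 genes; a gene was called at an adjusted p under 0.05. The script was tested on simulated data. Log2 CPM used a prior count of 2. Alternatives used other scalings and filters, DESeq2 1.42.0, limma 3.58.1 (voom with sample quality weights), the replicate number as a block, and subsets of libraries. Every value given for limma voom or voom used these weights. Libraries of 1 genotype all differed beyond sampling noise (lowest chi-square 9.15 for each degree of freedom), and each counted as 1 sample. That check can find a library sequenced again, but not separate libraries from the same mouse. Positions and exon lengths came from GENCODE on GRCm38, copies from BLAST 2.17.0 (95% identity over at least 300 bases), permutation tests from enumeration of all orders.

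The members, lists and library subsets were chosen with earlier results of these data known. Named genes are the members, up to 4 called genes of each list or otherwise its 2 most abundant, Axl, Atf3 and the 8 genes most like the score. Mertk, the Hspa1b neighbours and the called cell type markers were named outside this rule, after their values were seen. So were Hsf1, Hspd1, Hspe1, Hspb7, Hspa2, Dnajb4, Hspa13, Dnajc21 and Cdc37. The Hspa1b neighbourhood, the ratios between members, the fit without AMKO 1 and 2 and those by skeletal muscle set were chosen after the values were seen. Correlations were planned without p-values; permutation p-values were added later.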

Additional observations from a re-analysis of the deposited data

How the results depend on the processing

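The number of members called was 2 as reported and lay between 1 and 3 when 1 library was left out. It was 1 with total count scaling, with either WT 4 to 6 or WT 1 to 3 as the controls and without AMKO 1 and AMKO 2 together (chosen after seeing the data), and 0 among the 8 libraries richer in leukocyte markers, where edgeR gave an unadjusted p under 0.05 to 3 members and DESeq2 and limma voom called 2 and 1. Within the skeletal muscle sets (chosen after seeing the data; 3 against 3 libraries) it was also 0: without muscle transcripts 3 members had an unadjusted p under 0.05 in edgeR and DESeq2 and limma voom called 2 and 3, and with them 2 had one and both tools called 0. Over all genes 794 were called, 411 to 1140 without 1 library, 456 with total count scaling, 1267 by DESeq2, 1664 by limma voom, 167 against WT 4 to 6 alone, 231 against WT 1 to 3 alone, 98 among the 8 libraries, 1262 for WT 4 to 6 against AMKO 2, 3, 4 and 6, 466 without AMKO 1 and AMKO 2, 22 within the libraries without and 21 within those with muscle transcripts, and 804 with the muscle set as a term. The HSP score difference of 0.30 kept its sign (0.23 to 0.36 without 1 library). The score includes the called genes, and the members entered it unequally. Log2 fold changes were 0.86 for Hspb8, 0.54 for Hsp90aa1, 0.50 for Hspb1 and 0.31 for Hsph1. Those of Hspa8, Bag3, Dnajb1 and Dnaja1 lay between -0.13 and 0.13, so the sign of the score does not describe each member.

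Signs changed for genes near 0. Dnajb1 was -0.0047 to 0.20 without 1 library (-0.0028 without WT 3), -0.19 against WT 4 to 6 alone, -0.0231 among the 8 libraries and -0.0879 for WT 4 to 6 against AMKO 2, 3, 4 and 6. Bag3 was -0.0115 to 0.13 without 1 library (-0.0017 without AMKO 2), -0.0296 against WT 4 to 6, -0.0134 among the 8 libraries and -1.2e-04 without muscle transcripts. Hspb11 was 0.17 with muscle transcripts. Dnaja1 was -0.0442 against WT 4 to 6, and Hspa8 0.0656 and Fkbp4 0.18 against WT 1 to 3. Fkbp4 was -0.16 to 0.0085 without 1 library and 0.0035 without AMKO 1 and AMKO 2. St13 was -0.0371 to 0.0316 without 1 library, 0.0111 with RLE scaling, 0.0133 by DESeq2, 0.0134 by voom, 0.0066 without the 50 most counted genes, 0.0078 with no count filter, 0.0058 with the replicate block, 0.12 against WT 1 to 3, 0.0229 among the 8 libraries, 0.0375 without AMKO 1 and AMKO 2, 0.0847 without muscle transcripts and 6.7e-04 with the muscle set as a term. The cause was not tested.

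Deviations of same-numbered libraries had correlations of -0.160 to 0.346. The most similar AMKO library bore the same number for WT 1 and WT 6 and another number for WT 2 to 5. These values cannot decide whether equal replicate numbers pair the samples. With the replicate number as a block, 910 genes and 2 members were called. Hspa1a and Hspa1b stayed untested when summed.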
